A study of Homo sapiens with 14 samples.

Results

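The comparison described here sets leukaemia cells exposed to homoharringtonine (HHT) for 8 h against control cells, in 8 of the 14 libraries of the series. The libraries were taken by their labels: 4 mutant libraries with 100 nM HHT and 4 mutant control libraries. OCI-AML2 is an established human acute myeloid leukaemia cell line, and all 8 libraries carry the RUNX1 stop codon R174* on 1 allele. The mutant lines are 2 in number, named F3 and G7, and each gave 2 control and 2 HHT libraries. The labels give the controls DMSO for 8 h, while the column names give them 0 h, so HHT and time in culture cannot be told apart if the column names hold. Control and HHT libraries 1 and 2 are line F3 and libraries 3 and 4 are line G7. The labels do not say whether libraries of a line are separate cultures, so p-values measure only the spread between these libraries. No HHT-treated parental library was analysed here.

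HHT binds the peptidyl transferase centre of the large ribosomal subunit and stops elongation on newly started messages, so that ribosomes run off and protein synthesis falls. Proteins with short lives, among them repressors, cytokine signalling inhibitors and the enzymes of mRNA decay, are then lost soonest, and some messages are themselves degraded only while they are translated. Blocking translation is a classical way to superinduce immediate early genes, whose transcripts are short-lived and are normally silenced by newly made proteins. Charged amino acids are also spared when elongation stops, which is known to quiet the amino acid response and to activate the mTOR kinase.

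Library totals ran from 19250789 to 21925693 counts. Replicate libraries of the same line and treatment had r of 0.9925 to 0.9956 across genes, and the first principal component, with 81.5% of the variance, separated HHT from control while the second, with 10.7%, separated the lines. Counts spread over more genes after HHT. The 100 most counted genes took 24.9% to 26.5% of the counts in the 4 controls and 17.2% to 17.5% after HHT, and 600 to 667 genes against 1071 to 1099 made up the first 50% of the counts. All values are relative to the library, so a fall is a fall in share, and less RNA per cell cannot be seen. The myeloid markers SPI1, CD33 and LYZ were present in every library, at 318, 43.7 and 82.6 CPM (counts in 1e6 of the scaled library total) or more. Of 14 erythroid, 11 megakaryocyte, 11 lymphoid and 12 adherent-cell markers, 13, 9, 7 and 10 were below the filter on low counts. HBA1, HBB, PF4, PPBP, CD3E, COL1A2 and EPCAM were at 0 in all 8 libraries. Summed over a list, erythroid markers lay at 17.5 to 25.1 CPM in control libraries and 5.07 to 10.1 in HHT libraries, megakaryocyte markers at 7.85 to 30.8 and 3.49 to 11.3, and lymphoid markers at 27.6 to 36.7 and 16.7 to 17.4. The adherent list lay at 156 to 182 and 17.1 to 21.2, nearly all of it PECAM1, which myeloid cells also express. The part of these markers in the results was not tested. Fewer cells of a type and less RNA per cell cannot be told apart in bulk libraries.

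**Figure D1:**
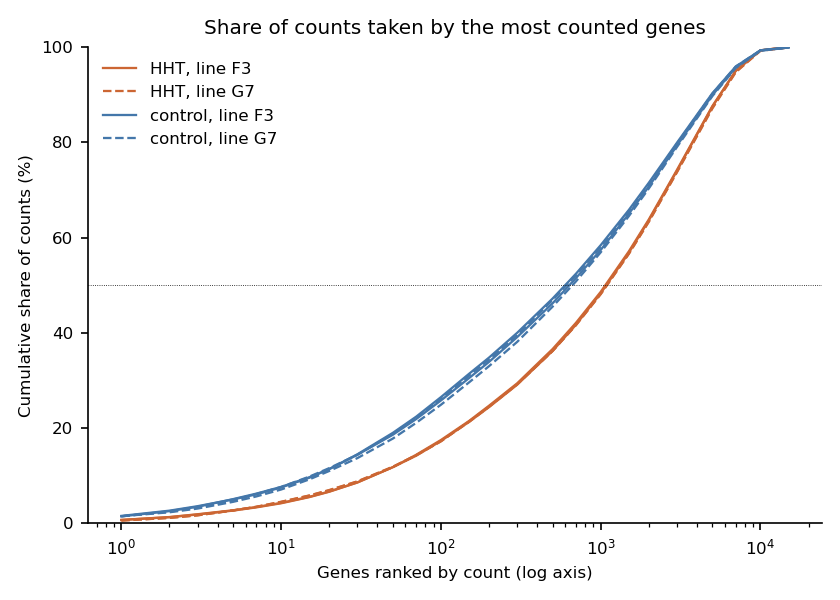
Cumulative share of counts (percent) against genes ranked by count (log axis), with 1 curve for each of the 8 libraries, solid for line F3 and dashed for line G7. The 4 HHT curves lie below the 4 control curves, with 17.2% to 17.5% against 24.9% to 26.5% of counts in the first 100 genes.

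The response reached most expressed genes and was near balance in direction. Of 13621 genes tested, 10793 (79.2%) were called at an adjusted p under 0.05 (edgeR), 5438 (39.9%) as risen and 5355 (39.3%) as fallen. At least a 2-fold change was called for 2105 risen genes (15.5%) and 2233 fallen genes (16.4%), at least an 8-fold change for 150 and 230, and at least a 32-fold change for 30 and 29. In 9143 genes (67.1%) the 4 HHT values did not overlap the 4 control values. The median absolute log2 fold change was 0.665 and the median standard error (SE) 0.09. The scaling assumes that most genes keep their share. With library totals alone the median gene moved by 0.23 on the log2 scale and 61.9% of the called genes had risen, against 50.4% with the scaling used here (trimmed mean of M-values).

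**Figure D2:**
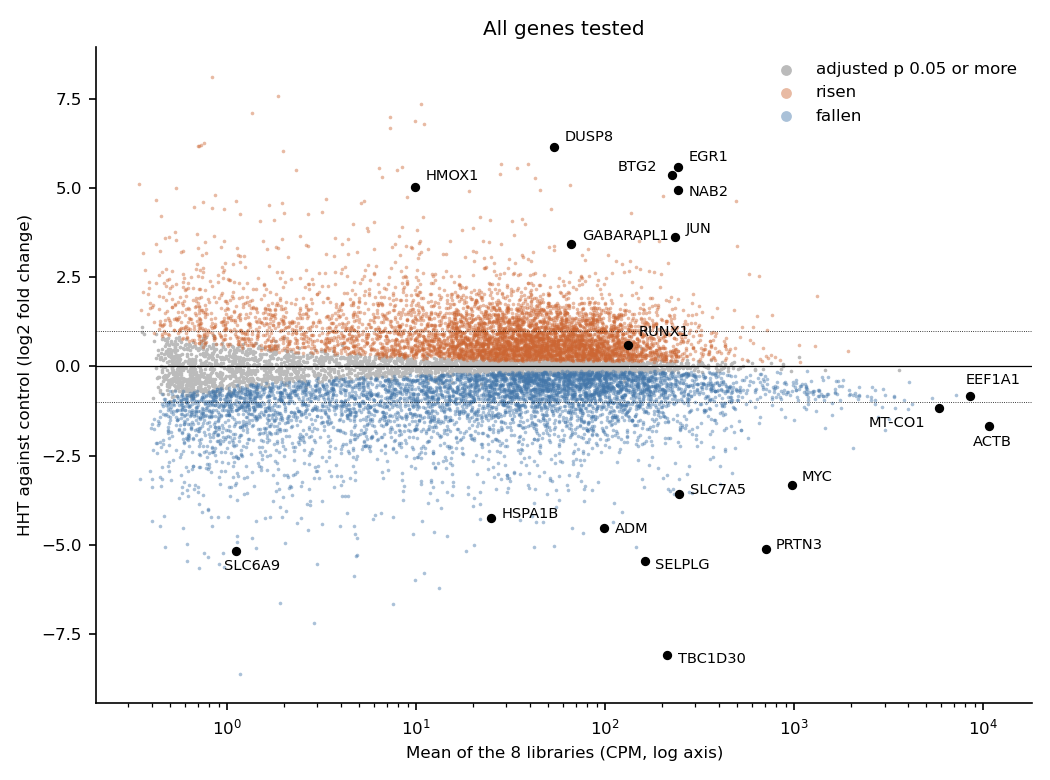
Log2 fold change of HHT against control for each of the 13621 genes tested, against mean CPM over the 8 libraries (log axis); orange genes rose, blue genes fell, grey genes were not called, and dotted lines mark a 2-fold change. Named genes are black, from DUSP8 at 6.14 to TBC1D30 at -8.08, and the most abundant genes lie mostly below 0.

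A small set of abundant transcripts showed next to no difference. UBA2, a subunit of the SUMO-activating enzyme, stood at 257, 268, 252 and 280 CPM in controls and 275, 262, 244 and 275 after HHT (log2 fold change -0.00 ± 0.06, SE). VAV1, HNRNPA0, HNRNPR, TPR, CA2, KMT2D and THRAP3 were the other coding genes above a mean of 200 CPM with the smallest changes, all between -0.00 and 0.01, and their groups overlapped. VAV1, a guanine nucleotide exchange factor of blood cells, was lower by 0.23 in F3 alone and higher by 0.22 in G7 alone, both called. KMT2D, a histone methyltransferase, was called as fallen in F3 alone (-0.25, edgeR adjusted p = 0.0318). With library totals alone the log2 fold change of UBA2 was 0.23. Over all genes tested, 364 had an estimate within 0.2 of 0 on the log2 scale after adding 2 SE on either side.

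Transcription factors of the immediate early class showed some of the largest rises. EGR1 (ENSG00000120738.7, chromosome 5, 138465490 to 138469315 on GRCh38), a zinc finger factor switched on by serum and MAP kinase signals, stood at 7.91, 10.4, 11.4 and 9.94 CPM in controls and 444, 468, 487 and 512 after HHT. Its values were close within each group and far apart between them, and it rose by 5.59 ± 0.09 (adjusted p = 2.1e-14). Its corepressor NAB2 rose by 4.96 ± 0.07, with controls at 14.7 to 16 CPM and HHT libraries at 458 to 481. EGR2 rose by 5.57, the orphan nuclear receptor NR4A3 by 4.29 and the stress factor ATF3 by 3.30. Of 16 tested members of the EGR, NR4A and ATF3 list, 13 rose and 2 fell, where 39.9% of all genes tested rose and 39.3% fell, with a median of 2.71 against -0.00 over all genes tested. Since 8 of these 16 had a mean under 5 CPM, the count was repeated at 5 CPM or more, where 7 of 8 rose. This mean, here and below, is over control and HHT libraries together. Genes that are high only after HHT can pass it, as they can the filter on low counts, so the repeat does not remove them.

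AP-1 is a dimer of FOS and JUN proteins that binds growth and stress genes. JUN rose from 35.2, 36.5, 32.5 and 31.9 CPM to 556, 553, 310 and 326, a log2 fold change of 3.63 ± 0.11, with the higher HHT pair in line F3. FOS stood at 18.1, 18.0, 3.74 and 4.30 CPM in controls and 73.3, 76.8, 38.4 and 43.0 after HHT. Its groups did not overlap, and it rose by 2.56 ± 0.18. FOSL2 rose by 3.13, the small MAF protein MAFF by 3.23, and JUNB and JUND by 1.04 and 0.87. In all, 12 of 13 AP-1 genes rose and none fell (10 of 11 at a mean of 5 CPM or more). The Kruppel-like factors divided, 10 of 16 rising and 4 falling: KLF10, a TGF-beta induced repressor, rose by 4.78, KLF6 by 3.51 and KLF2 by 4.06.

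Of 27 tested early response genes outside these families 24 rose. BTG2, an antiproliferative partner of the CCR4-NOT deadenylase, rose from 14.3, 13.2, 7.31 and 8.01 CPM to 381, 369, 508 and 496, by 5.36 ± 0.20. IER3 and IER2, early response proteins, rose by 5.27 and 2.64, TRIB1, a pseudokinase adaptor for degradation of C/EBP proteins, by 4.30, and SERTAD1, a regulator of CDK4, by 5.09. Among the other coding genes with the largest rises, PHLDA1 and the TWEAK receptor TNFRSF12A rose by 5.68 and 5.67, HES1, a Notch target repressor, by 4.96, and CREB5 by 5.56. HELZ2, a nuclear receptor coactivator, and KIAA1551 rose by 3.53 and 3.38, and TXNIP, an inhibitor of thioredoxin and of glucose uptake, by 4.64.

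**Figure D3:**
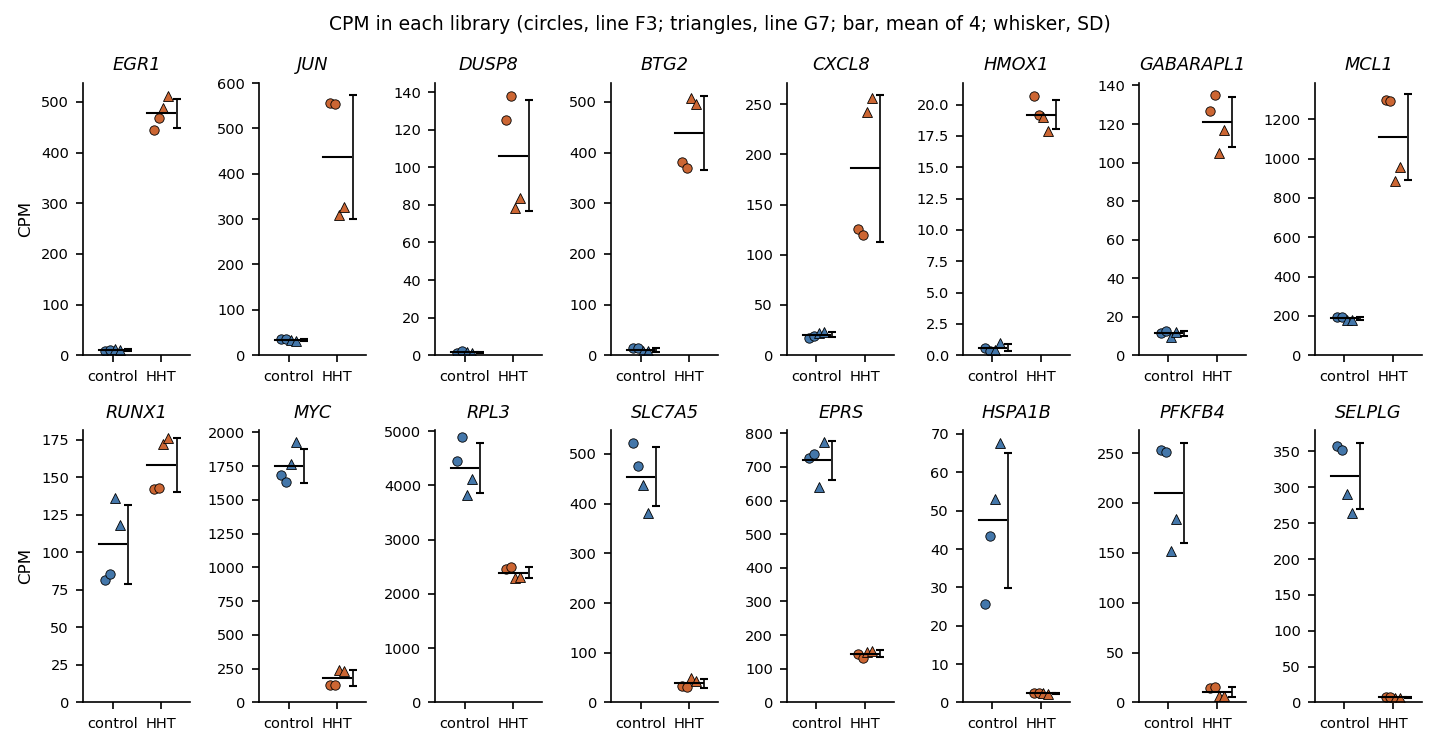
CPM (linear axes from 0) of 16 genes in each library, circles for line F3 and triangles for line G7, with the mean of 4 as a bar and the SD as a whisker. EGR1 lies at 7.91 to 11.4 CPM in controls and 444 to 512 CPM after HHT. No gene shown has overlapping groups, as holds for 67.1% of all genes tested.

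Among genes that feed back on signalling most members rose in each of 3 lists. DUSP8, a phosphatase of the JNK and p38 kinases, had the largest rise among coding genes of 20 to 100 CPM: 1.18, 2.13, 1.43 and 1.24 CPM in controls and 125, 138, 78.4 and 83.6 after HHT, a log2 fold change of 6.14 ± 0.13 (adjusted p = 1.58e-13). DUSP5, DUSP16 and DUSP6 rose by 4.64, 2.72 and 2.6, and SPRY4, an inhibitor of receptor tyrosine kinase signalling, by 4.75. Of 18 tested genes of MAP kinase phosphatases and Sprouty feedback 15 rose, and the 2 that fell were DUSP3 (-1.76) and DUSP7 (-1.63). In the NF-kB list 16 of 19 rose, led by BCL3 (4.13), a nuclear IkB protein, RELB (2.95), and NFKBIE (1.77). NFKBIA, the inhibitor resynthesised after each NF-kB pulse, rose by 1.18, while TNIP1, an A20 partner, fell by 1.24. Of 16 inhibitors of cytokine signalling 12 rose, 4 of them at least 2-fold, and 2 fell (median 0.46).

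Secreted signals moved both ways. CXCL8, the neutrophil chemoattractant interleukin 8, rose from 17.3, 19.1, 21.6 and 23.4 CPM to 126, 120, 242 and 256, by 3.12 ± 0.12, with the higher HHT pair in line G7. TNF rose by 3.02, IL1B by 3.14 and EREG, an EGF receptor ligand, by 2.31. CCL3L1 rose by 5.39, but it is a near-identical copy of other CCL3 genes and the counting may split them. VEGFA, the vascular growth factor, fell by 2.00 and IL16, a T cell chemoattractant, changed by -3.77. Of 25 tested members of 37 listed, 15 rose and 6 fell; at a mean of 5 CPM or more the count was 10 and 5 of 18.

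The promoters of these genes are shown because they carry the sites through which serum, cAMP and stress signals are known to act. Each is the 150 bases before the RefSeq start on GRCh38.p14, in the direction of transcription, with the site named for it in capitals. DUSP8 (chr11:1572272-1572421, minus strand), GABARAPL1 (chr12:10212727-10212876, plus strand) and MAFF (chr22:38201844-38201993, plus strand) hold the cAMP response element (CRE), EGR1 (chr5:138465329-138465478, plus strand) 2 CArG boxes of serum response factor, IER2 (chr19:13150261-13150410, plus strand) an ETS site on the reverse strand, and CXCL8 (chr4:73740419-73740568, plus strand) an AP-1 site and a TATA box.
DUSP8: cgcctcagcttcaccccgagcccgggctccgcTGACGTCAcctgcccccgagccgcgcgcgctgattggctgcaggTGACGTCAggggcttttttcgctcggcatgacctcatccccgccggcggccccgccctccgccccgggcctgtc
GABARAPL1: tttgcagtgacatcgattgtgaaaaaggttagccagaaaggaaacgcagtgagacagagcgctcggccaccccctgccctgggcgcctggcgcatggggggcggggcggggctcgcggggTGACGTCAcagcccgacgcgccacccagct
MAFF: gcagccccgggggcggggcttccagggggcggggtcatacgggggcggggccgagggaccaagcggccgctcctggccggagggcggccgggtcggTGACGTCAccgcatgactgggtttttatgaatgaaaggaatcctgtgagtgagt
EGR1: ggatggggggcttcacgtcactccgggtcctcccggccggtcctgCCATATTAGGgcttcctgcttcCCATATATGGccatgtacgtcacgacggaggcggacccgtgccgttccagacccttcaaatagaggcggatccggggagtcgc
IER2: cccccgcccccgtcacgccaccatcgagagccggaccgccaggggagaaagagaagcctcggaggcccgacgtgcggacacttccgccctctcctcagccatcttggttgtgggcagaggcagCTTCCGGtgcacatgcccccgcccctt
CXCL8: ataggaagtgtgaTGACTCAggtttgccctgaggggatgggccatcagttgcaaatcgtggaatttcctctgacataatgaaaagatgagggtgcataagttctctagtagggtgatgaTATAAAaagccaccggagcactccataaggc

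Counted from the start, the CREs begin at -118 and -74 in DUSP8, -54 in MAFF and -30 in GABARAPL1, the CArG boxes at -105 and -83 in EGR1, and the AP-1 site and TATA box at -137 and -31 in CXCL8. A RefSeq promoter on the same chromosome was found for 9497 of 11597 nuclear coding genes tested, and 11 motifs were searched on both strands from 250 bases before to 50 after the start. The CRE, TGACGTCA, was in 3.42% of these promoters and 1.98% of all promoters in the RefSeq table. It was in 5.09% of genes that rose at least 2-fold, 7.48% (8 of 107) of those that rose at least 8-fold and 2.07% of those that fell at least 2-fold. The ETS site CCGGAAG (20.4% of tested and 10.7% of all promoters) was in 22.8% of 2-fold risen and 8.5% of 2-fold fallen genes. Genes not called at 2-fold held it in 22.3%, near the share of the risen. It was in 3.74% and 2.27% of genes that moved 8-fold up or down. The AP-1 site TGANTCA (4.24% of tested and 7.76% of all promoters) was in 13.1% of 8-fold risen and 7.58% of 8-fold fallen genes, and the TATA box TATAAA (5.71% and 12% by the same order) in 16.8% and 12.9%. CArG boxes were in 1.2% of 2-fold risen and 1.03% of fallen genes, and NF-kB sites in 6.83% and 7.17%, beside 1.03% and 6.51% of all tested. Other motifs of the 11 searched are not reported here. All such matches are letters in a window and say nothing of binding in these cells.

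Several of these transcripts hold AU-rich elements in the 3′ UTR, the sites at which ZFP36 proteins and the deadenylases they recruit shorten an mRNA's life. The first nonamer TTATTTATT of each UTR is shown in capitals within its neighbouring bases, from GENCODE 29 transcripts on GRCh38: DUSP8 at chr11:1556374-1556402 (minus strand), NAB2 at chr12:57095420-57095448, MAFF at chr22:38215914-38215942, CXCL8 at chr4:73742664-73742692, TNF at chr6:31577990-31578018 and FOS at chr14:75282060-75282088 (all plus strand). TNF has 5 such nonamers in its UTR, counted with overlaps, and MAFF 2.
DUSP8: tttcgattttTTATTTATTtaagctgttc
NAB2: gtacagtagaTTATTTATTttgttatttt
MAFF: tccccactgtTTATTTATTgcacggatct
CXCL8: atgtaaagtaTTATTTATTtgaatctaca
TNF: gcacttgtgaTTATTTATTatttatttat
FOS: tgtttttaatTTATTTATTaagatggatt

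The nonamer was in the 3′ UTR of 8.45% of 11475 coding genes. Of the 970 genes that hold it 53.5% rose and 28.8% fell, against 41.4% and 39.6% of the 10505 without it. Longer UTRs hold it more often, so genes were also split at 1000 bases of UTR. Below that length 52.5% of 139 genes with the nonamer rose against 36.2% without it, and above it 53.7% of 831 against 46.8%. With 3 or more copies, 56.9% of 72 genes rose and 20.8% fell. A rise of at least 2-fold was called for 21.2% of the genes with the nonamer and 14.8% of those without it.

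The genes that act on such messages changed as well. ZFP36, which binds the AU-rich element and recruits the deadenylase, rose from 202, 208, 125 and 133 CPM to 585, 587, 369 and 381, by 1.53, and ZFP36L1 by 1.47, while the more abundant ZFP36L2 fell by 1.37. CNOT1, the scaffold of the CCR4-NOT deadenylase, fell by 0.96, and the poly(A) binding proteins PABPC1 and PABPC4 changed by -1.18 and -1.42. Over 39 mRNA decay regulators 26 rose and 9 fell, with a median of 0.56. Nonsense-mediated decay removes messages with premature stops during translation: 14 of its 18 factors rose and 2 fell, among them SMG9 (1.6) and UPF2 (1.22). The snoRNA host and other noncoding transcripts, known substrates of that pathway, held 12 risen and 11 fallen of 25, beside 39.9% and 39.3% over all genes tested. SNHG1 rose from a range of 90.2 to 118 CPM to one of 367 to 398 and SNHG12 by 2.04, SNHG16 fell by 2.00, and GAS5 stood at -0.09 ± 0.06 (edgeR adjusted p = 0.187). Without control replicate 3, GAS5 was called as fallen at -0.17, and with library totals alone as risen at 0.14.

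Genes of RNA processing and transcription rose more often than they fell. Among SR proteins and CLK kinases 15 of 23 rose and 2 fell, with SON at 1.57 and SRSF10 at 1.31, while SRSF1 fell by 0.68. Of the hnRNP genes 42.3% rose, near the 39.9% of all genes tested, and 23.1% fell, against 39.3%. The hnRNP genes lay on both sides of 0 (median 0.04, 11 risen and 6 fallen of 26). Their median was -0.05 without control replicate 1 and -0.03 in line G7 alone. With library totals alone it was 0.27, with 18 risen and 4 fallen. In the list of RNA polymerase II and elongation factors 24 of 35 rose. CDK9 and CCNT1, the P-TEFb pair that releases paused polymerase, stood at 47.3 to 53.2 and 56.0 to 66.7 CPM in the controls, and at 117 to 121 and 156 to 173 after HHT, rises of 1.26 and 1.40. Their super elongation complex partners AFF4 and ELL2 rose by 1.77 and 1.95. SUPT16H, the large FACT subunit that moves nucleosomes ahead of polymerase, fell by 2.17 and the polymerase core subunit POLR2B by 1.30.

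The machinery of translation itself fell in its ribosomal part. Every one of 47 large-subunit protein genes fell (median -0.75), as did 31 of 32 small-subunit genes (median -0.70) and 20 of 20 other messages with a 5′ terminal oligopyrimidine (TOP) tract, and only 1 of the large-subunit genes and 1 of the other TOP messages fell by as much as 2-fold. RPL3 stood at 4450, 4887, 3824 and 4111 CPM in controls and 2463, 2504, 2298 and 2312 after HHT, a log2 fold change of -0.85 ± 0.06. RPS2 fell by 0.93, EEF1A1 and EEF2, the elongation factors that deliver tRNA and move the ribosome, by 0.83 and 0.80, and RPL10A by 0.37. RPS10 was the 1 exception (0.69), but it stood at 7.76 ± 1.1 CPM (SD, n = 4) in controls while RPS2 stood at 3043 to 3964, and it overlaps a readthrough gene with which its reads may be split. Initiation, elongation and release factors held 18 risen and 21 fallen of 45 (22 and 11 with library totals alone), beside 39.9% and 39.3% over all genes tested. EIF5 rose by 1.70 and EIF1B by 1.02, both with functions in start site selection. EEF2K, the kinase that inhibits EEF2, fell by 2.35, and EIF4EBP1, the mTOR-controlled inhibitor of cap binding, by 1.99.

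Ribosome biogenesis went the other way from the ribosomal proteins, with 38 of 67 genes risen and 19 fallen (median 0.28). Over all genes tested 39.9% rose and 39.3% fell. NOP2, an rRNA methyltransferase, rose by 1.53, UTP3 by 1.5 and PNO1 by 1.43, while HEATR1, a large component of the small-subunit processome, fell by 1.07. With library totals alone the ribosomal protein medians stayed below 0 and the biogenesis median above it. Of the 22 cytosolic aminoacyl-tRNA synthetases 16 fell and 4 rose. EPRS, the glutamyl-prolyl enzyme, stood at 725, 738, 640 and 775 CPM in controls and 144, 132, 150 and 154 after HHT, a fall of 2.31. IARS fell by 2.01 and AARS by 1.82.

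**Figure D4:**
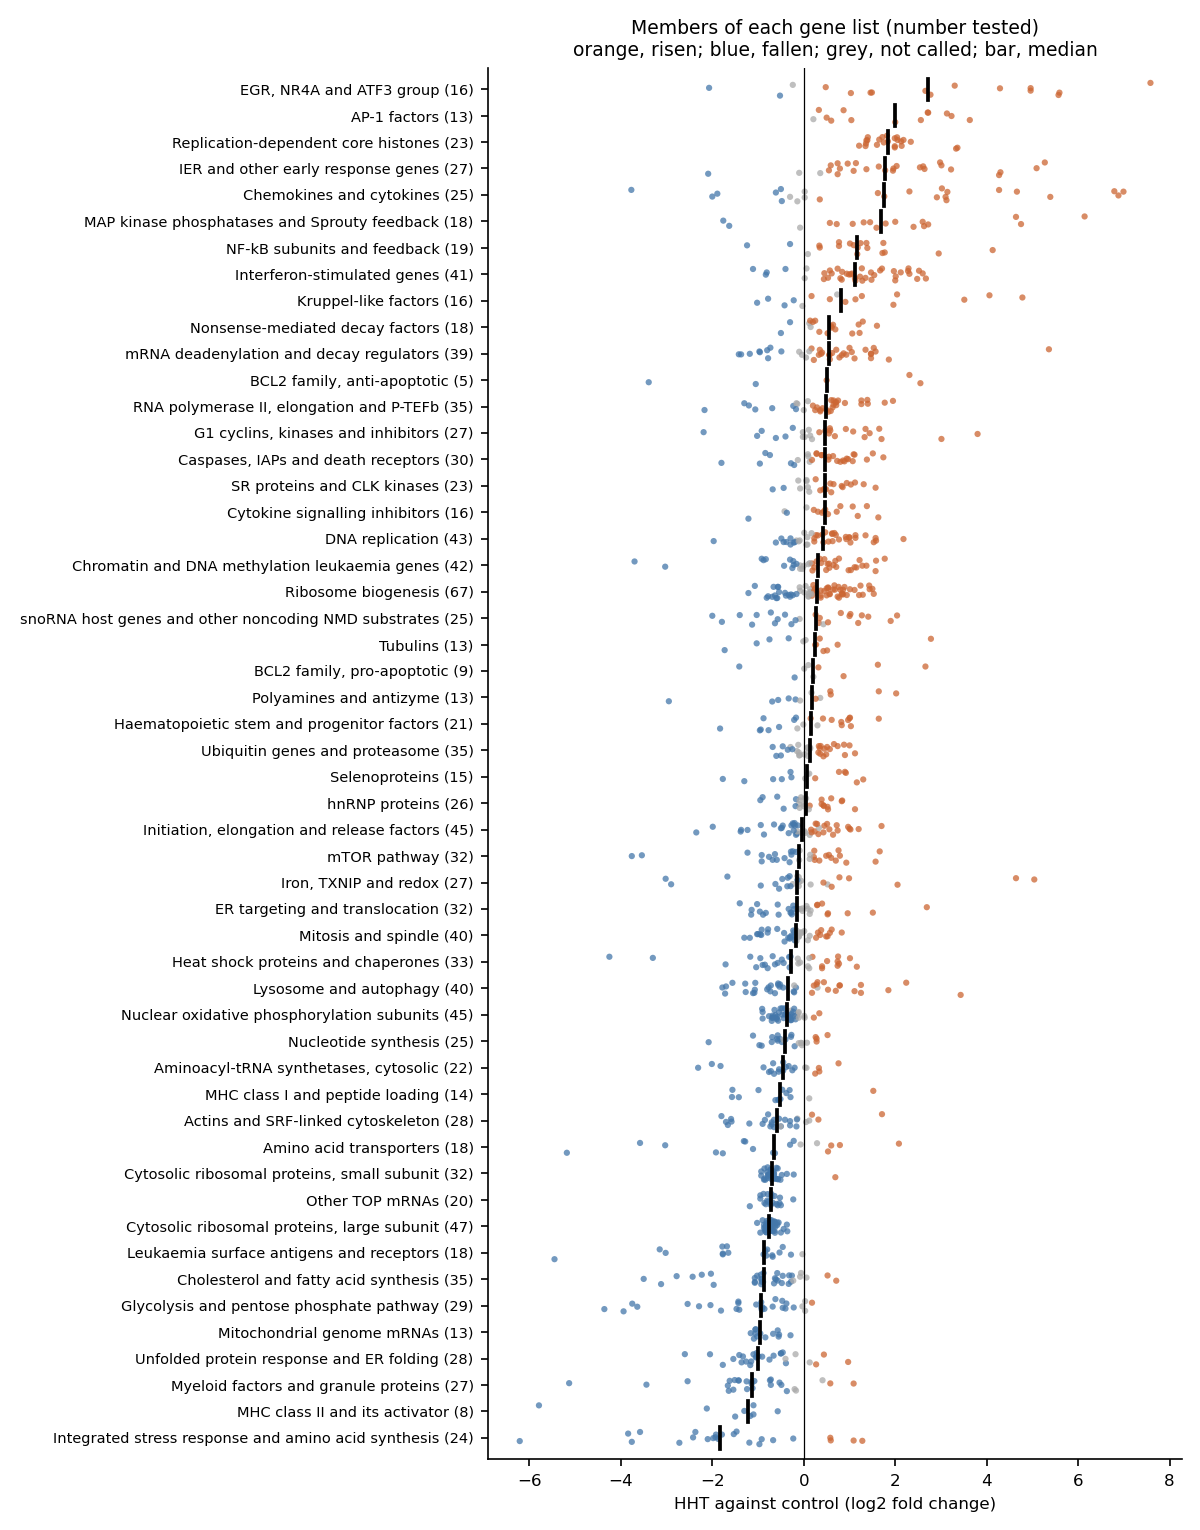
Log2 fold change of every tested member of 52 gene lists, ordered by list median (black bar), with the number tested in brackets; orange members rose, blue fell and grey were not called. Medians run from -1.83 for the integrated stress response and amino acid synthesis to 2.71 for the EGR, NR4A and ATF3 group.

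Genes of amino acid supply held several large falls. SLC7A5, the leucine transporter, went from 523, 476, 438 and 381 CPM to 32.2, 30.3, 48.8 and 42.1, by -3.58 ± 0.14, and the glutamine transporter SLC1A5 fell by 3.03. SLC6A9, a glycine transporter, fell by 5.18, though it stood at only 1.72 to 2.42 CPM in controls. SLC3A2, the heavy chain that pairs with SLC7A5, rose by 0.60, and SLC43A2 by 2.08. Of 18 transporters 12 fell and 4 rose, where 39.3% of all genes tested fell and 39.9% rose. In the integrated stress response, ATF4 is made from a message whose translation rises when eIF2 is phosphorylated, and it drives amino acid synthesis genes. ATF4 mRNA rose from 1069, 1155, 946 and 975 CPM to 1610, 1650, 1459 and 1490 (0.58 ± 0.05), whereas 20 of the 24 list members fell, among them PHGDH (-2.10), ASNS (-1.87), CHAC1 (-3.58), DDIT3 (-1.19) and DDIT4 (-3.76). Of 32 mTOR pathway genes 13 rose and 15 fell (15 and 10 with library totals alone). These are 40.6% and 46.9%, near the 39.9% and 39.3% of all genes tested. RICTOR, a subunit of mTORC2, stood at 1.57 and DEPTOR, an mTOR inhibitor, at -3.54.

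Protein folding in the endoplasmic reticulum (ER) was among the lists with most falls. HSPA5, the ER chaperone BiP, stood at 700, 701, 805 and 845 CPM in controls and 262, 250, 273 and 258 after HHT, a fall of 1.54. SEL1L and HERPUD1, of ER-associated degradation, fell by 2.05 and 1.77, and 22 of 28 genes of this list fell while 3 rose. At the translocon, SEC61A1 fell by 0.96 and the oligosaccharyltransferase subunits STT3A and RPN2 by 1.40 and 1.14, but that list as a whole stood nearer 0 (16 of 32 fell, 8 rose, median -0.14), and its median was 0.09 with library totals alone. Over all genes tested 39.9% rose and 39.3% fell. Heat shock proteins and chaperones held 10 risen and 17 fallen of 33 (13 and 14 with library totals alone). Among them HSPA1B fell from 25.6, 43.5, 53.1 and 67.7 CPM to 2.50, 2.58, 2.33 and 2.27 (-4.25 ± 0.21). HSPA1A fell by 3.30, and since the 2 genes are near-identical copies their reads may be split. DNAJB1 fell by 1.71 and the constitutive HSPA8 by 1.04.

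Protein degradation divided by compartment. In the proteasome, 14 of 17 PSMC and PSMD genes of the regulatory particle rose and none fell (median 0.49), with PSMD7 at 1.12, PSMD6 at 1.00 and PSMC4 at 0.90. Of 14 PSMA and PSMB genes of the proteolytic core, 2 rose and 4 fell (median -0.11). In lysosomes the proteases CTSA and CTSD and the membrane protein LAMP2 fell by 1.78, 1.72 and 1.70. The joint lysosome and autophagy list held 15 risen and 23 fallen of 40, beside 39.9% and 39.3% over all genes tested. Of its autophagy members, GABARAPL1, an ATG8 protein that coats autophagosomes, went from 11.5, 12.3, 9.23 and 12 CPM to 127, 135, 105 and 117 (3.43 ± 0.09), MAP1LC3B rose by 2.24 and the cargo receptor SQSTM1 by 1.85.

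Metabolic genes fell in most lists. PFKFB4, a kinase and phosphatase that tunes the rate of glycolysis, fell from 253, 251, 152 and 184 CPM to 14.8, 15.3, 6.42 and 6.26 (-4.36 ± 0.12), with ALDOC at -3.94, ENO2 at -3.64 and LDHA at -2.29, and 25 of 29 glycolytic genes fell. Single genes outside this list fell by more: ADM, a vasodilator peptide, fell by 4.54, and HILPDA, a lipid droplet protein, stood at -4.67. MIR210HG, the host transcript of a microRNA, stood at 16.0, 15.8, 15.6 and 12.5 CPM in controls and 0, 0.172, 0.269 and 0.126 after HHT. In lipid synthesis 29 of 35 genes fell, with MSMO1 at -3.12, SCD, the stearoyl-CoA desaturase, at -2.78 and LSS at -2.43. CAD, which begins pyrimidine synthesis, fell by 2.08.

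Iron and redox genes went both ways, 7 risen and 12 fallen of 27 (10 and 7 with library totals alone). Over all genes tested 39.9% rose and 39.3% fell. HMOX1, haem oxygenase, rose from 0.592, 0.312, 0.439 and 0.968 CPM to 20.7, 19.2, 19 and 17.9 (5.04 ± 0.19), and NFE2L2, the factor that induces it, rose by 2.05. TFRC, the transferrin receptor, fell by 3.02 and the iron exporter SLC40A1 stood at -2.90. FTH1, ferritin heavy chain, stood at 293 and 310 CPM after HHT in F3 and 84.4 and 89.2 in G7, against 113, 138, 144 and 63.5 in controls (0.52 ± 0.28, edgeR adjusted p = 0.0994), and its many processed pseudogenes may take some of its reads. FTH1 was called as risen without control replicate 3 (0.92), HHT replicate 3 (0.73) or HHT replicate 4 (0.70), with library totals alone (0.75), in line F3 alone (1.25), with limma-voom (0.60), with no filter on low counts (0.59) and with the exon length trend removed (0.60), and it stood at -0.25 in line G7 alone. All 13 mitochondrial mRNAs fell, MT-CO1 by 1.16, and MT-CYB by 0.29 with overlapping groups. The call of MT-CYB was lost with library totals alone (-0.06), without the line term (-0.25), in line G7 alone (-0.12) and with the exon length trend removed (-0.10).

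Within the BCL2 family the inhibitors changed in opposite directions. MCL1, a short-lived protein, and BCL2A1 rose by 2.55 and 2.31 in mRNA, and BCL2, the target of venetoclax, fell by 3.39. BCL2L1 rose by 0.50. Of the BH3-only genes PMAIP1, the MCL1 antagonist NOXA, rose from 47.4, 45.8, 20.3 and 26.4 CPM to 278, 281, 149 and 162 (2.66 ± 0.08), and BMF rose by 1.62, while BIK fell by 1.41 and BBC3 by 0.20. The call of BBC3 was lost under several alternatives, and its log2 fold change was 0.03 with library totals alone. The whole pro-apoptotic list held 4 risen and 2 fallen of 9, where 39.9% and 39.3% of all genes tested rose and fell. RIPK1, a kinase of death receptor signalling, rose by 1.51, and 20 of 30 caspase, IAP and death receptor genes rose. CDKN1A, the p21 inhibitor of cyclin-dependent kinases, rose by 3.01 and TIGAR by 3.16.

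In the cell cycle, CDKN2B, an inhibitor of CDK4 and CDK6, rose from between 0.520 and 0.989 CPM to between 8.26 and 13 CPM (3.80), and E2F1, the factor of S-phase entry, rose by 1.70. CCND3 rose by 1.35 and CCND2 fell by 2.19. Of 43 replication genes 26 rose and 9 fell, where 39.9% and 39.3% of all genes tested rose and fell. ORC6 of the origin complex rose by 2.18 and RPA1, which coats single strands, fell by 1.97. Of 40 mitotic genes 20 fell and 9 rose (11 and 14 with library totals alone), with PLK1, a kinase of mitotic entry, at -1.18. Of 28 genes of actin and its SRF-linked partners 21 fell and 3 rose: ACTB went from 15945, 17388, 15824 and 16308 CPM to 5664, 5238, 4959 and 4853 (-1.66), and TLN1, which links integrins to actin, fell by 1.58. Tubulins went both ways, 7 risen and 4 fallen of 13 (median 0.25). TUBB fell by 1.73 from 2244 ± 138 CPM (SD, n = 4), while TUBB2A rose by 2.78 from 2.25 ± 0.825. Tubulin mRNA is known to be degraded during its own translation when free tubulin is abundant. All 23 tested core histone genes rose, of 36 listed. At a mean of 5 CPM or more all 12 rose, with a median of 1.99, but that mean includes the HHT libraries and does not remove this limit.

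Genes of myeloid identity mostly fell. PRTN3, the granule proteinase 3, stood at 1284, 1242, 1501 and 1453 CPM in controls and 41.1, 40.1, 40.4 and 34.7 after HHT (-5.13 ± 0.09). MPO fell by 1.66, IRF8, a factor of monocyte fate, by 3.44, with the receptor CSF1R at -2.54 and CEBPA at -1.25, and 22 of 27 tested genes of this list fell. SPI1, the PU.1 master factor, rose by 0.58. In a list of 25 leukaemia surface antigens and receptors, 17 of the 18 tested fell. SELPLG, the P-selectin ligand, went from 357, 352, 291 and 264 CPM to 8.15, 7.64, 6.64 and 6.47 (-5.45 ± 0.07). CXCR4 stood at -3.15, the kinase receptor FLT3 at -1.68 and ITGB2 at -1.65. CD47 stood at -0.03 ± 0.12 (adjusted p = 0.834), called as risen in F3 alone (0.32) and as fallen in G7 alone (-0.39). RUNX1 rose by 0.61, MYB and MYC fell by 1.83 and 3.33, and HHEX, a stem cell factor, rose by 1.64.

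Interferon-stimulated genes rose, 35 of 41. IFIT2, an RNA-binding antiviral protein, went from 47.1, 50.9, 17.6 and 20.9 CPM to 341, 386, 103 and 102 (2.67 ± 0.10). Its groups did not overlap, and the higher pair of each group was line F3. PARP9 rose by 2.48, while BST2, a membrane tether of viruses, fell by 1.11. The list median was 1.31 in line F3 alone and 1.03 in G7 alone. Among chromatin regulators mutated in leukaemia 25 of 42 rose and 11 fell, beside 39.9% and 39.3% over all genes tested. EP300 and KDM6A rose by 1.58 and 1.77. TET1, which oxidises methylcytosine, and IDH1, which makes its cofactor, stood at -3.70 and -3.03.

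The steepest falls among abundant coding genes held several membrane proteins. TBC1D30 (ENSG00000111490.12, chromosome 12, 64780516 to 64881032), a Rab GTPase-activating protein, stood at 554, 528, 279 and 337 CPM in controls and 2.20, 1.89, 0.988 and 1.18 after HHT, a log2 fold change of -8.08 ± 0.11 (adjusted p = 2.83e-15). SLC6A8, the creatine transporter, fell by 5.05, with the receptor ADGRA2 at -4.08, the nucleotide receptor P2RY2 at -3.84 and ZNF395 at -3.57. Among genes of 20 to 100 CPM, DACT3, a Wnt antagonist, fell by 5.06, with METTL7B at -5.03, the glycosyltransferase B3GNT7 at -5.01, the inhibitory receptor CD300A at -4.53, the collagen COL8A2 at -4.37 and DDN at -4.30. B3GNT7 was at 14.4 and 13.2 CPM in F3 controls and 64.9 and 63.3 in G7, and fell in both lines.

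Gene classes responded unequally. Of 427 zinc finger (ZNF) genes tested, most of them transcriptional repressors, 74.0% rose and 12.4% fell, with 41.7% risen at least 2-fold and a median of 0.83. Chromosome 19, which holds the large ZNF clusters, had 75.4% risen of 199, and the other chromosomes 72.8% of 228, and at a mean of 20 CPM or more 81.0% of 216 rose. Antisense and sense intronic transcripts fell in 44.1% and rose in 23.9% of 574, and pseudogenes fell in 43.2% and rose in 24.7% of 794. Over all genes tested 39.3% fell and 39.9% rose. Past 2-fold, 30.1% of antisense and sense intronic transcripts fell and 13.1% rose. Pseudogenes fell in 15.7% and rose in 16.4% past 2-fold, near the 16.4% and 15.5% of all genes tested. Reads of an antisense gene and its partner cannot be told apart where counting is not stranded, which is not given here. The largest rises among non-coding genes were the pseudogenes ADGRE4P (3.35), CCT6P3 (2.79), RRN3P2 (2.58) and FCGR1CP (2.43), each sharing sequence with a coding relative, and AC004706.3 (2.53). After MIR210HG (-6.67) the largest falls were AP002761.4 (-4.35), AC002464.1 (-3.21), ELFN1-AS1 (-2.95) and SNHG14 (-2.37).

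**Figure D5:**
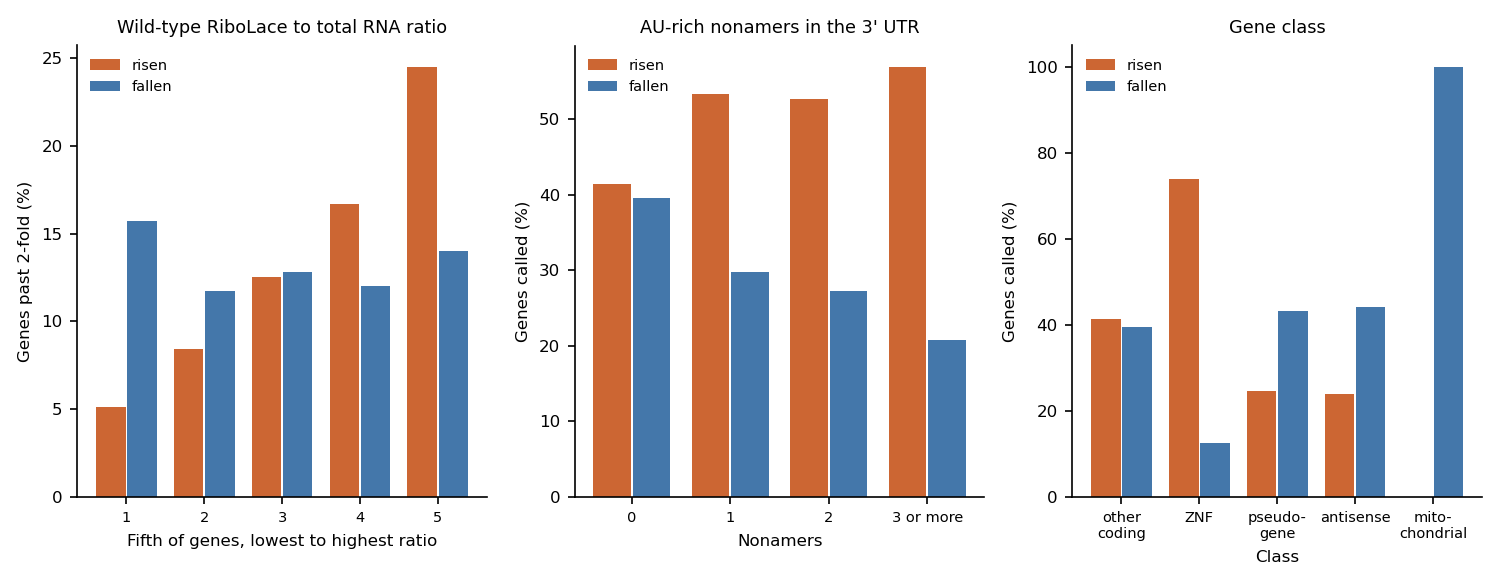
Share of genes risen (orange) and fallen (blue), in percent on axes from 0, by 5 equal groups of the wild-type RiboLace to total RNA ratio (left, past 2-fold), by the number of AU-rich nonamers in the 3′ UTR (middle, called) and by gene class (right, called). The share risen past 2-fold climbs from 5.14% in the lowest of 5 groups of the ratio to 24.5% in the highest.

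Genes were also ranked by how much of their RNA was bound to ribosomes in untreated wild-type cells, from RiboLace, a pull-down with a puromycin-like probe, and total RNA libraries that the HHT comparison did not use. Across 9307 genes the RiboLace to total RNA ratio and the HHT log2 fold change had a Spearman correlation of 0.171, and of 0.197 across 9053 coding genes. In the lowest of 5 equal groups by this ratio 5.14% rose and 15.7% fell by 2-fold or more, and in the highest 24.5% and 14.0%. Restricted to a mean of 20 CPM or more, the shares risen were 5.11% and 24.6%. Genes within a library are not independent. Abundance also went with the response. Wild-type total RNA, the denominator of the ratio, had a Spearman correlation of -0.191 with the HHT log2 fold change across 11597 coding genes. In the most abundant of 5 groups by wild-type total RNA 2.72% rose and 18.6% fell by 2-fold, and in the least abundant group 26.3% and 20.8%. Whether the ratio goes with the response apart from abundance was not tested. Rank correlations with length were 0.088 for exon length, 0.099 for gene span and 0.029 for intron count over all genes. By 5 equal groups of coding genes, the share risen at any fold went from 35.9% to 47.5% with exon length. With 3′ UTR length it went from 33.4% to 48.7%. Past 2-fold, 15.2% rose in the lowest and 15.4% in the highest group by exon length. By 3′ UTR length these shares were 11.8% and 17.2%. Coding genes without introns rose past 2-fold in 21.5% and those with over 20 introns in 11.9%. Genes without introns also fell past 2-fold in 18.8%, and those with over 20 introns in nearly the same share. Among all nuclear coding genes 15.5% rose and 15.1% fell past 2-fold, and the rank correlation with intron count was -0.048.

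A difference between G7 and F3 in the log2 response was called for 572 genes (4.2%). BTG2 rose more in G7 (difference 1.26, adjusted p = 0.000128) and JUN less (-0.65, adjusted p = 0.00312). The number called depended strongly on single libraries, from 170 without control replicate 1 to 1045 without control replicate 4, and it was 2199 with the replicate number as a block.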

How the data were processed

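RNA-seq of 4 HHT and 4 control libraries of OCI-AML2 cells with RUNX1 R174* was compared. The members and gene lists were chosen with earlier results of these data known. The authors deposited raw read counts per gene for 58037 gene identifiers. The tools named, per the submitters' processing notes, were DESeq2 and STAR 2.6.0b with build GRCh38, without their roles. Not given in the sources used here are the counting program, annotation and strandedness. Identifiers were matched to GENCODE 29 (57429 matched).

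Genes were filtered with filterByExpr by group, scaled by trimmed mean of M-values and tested with edgeR 4.0.16 (quasi-likelihood F-test, line as covariate, R 4.3.3), with Benjamini-Hochberg adjustment over 13621 genes and a threshold of 0.05. CPM are counts scaled to 1e6 of the normalized library total. The SE was approximated from the size of the log2 fold change over the root of its F statistic. The RiboLace ratio used genes with 20 or more wild-type reads per assay and a pseudocount of 0.5 CPM.

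Named genes were the 10 largest rises and falls of coding genes at a mean of 100 CPM or more, 8 of each at 20 to 100 CPM, 5 of each among other genes at 5 CPM or more, up to 4 members of each list by adjusted p, list members needed by role, the 8 smallest changes at 200 CPM or more, and RUNX1, MYC, BCL2 and MCL1. Genes named by role were picked with their values known. Some genes that this rule picks are not reported here.

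Library totals of 19250789 to 21925693 counts gave a median SE of 0.09. Counts were also simulated for this comparison (13621 genes), with the dispersions of these data, few genes changed and no line difference. There, 100% of changes of 2 on the log2 scale, 97.96% of rises of 1 and 91.84% of falls of 1 were recovered, with 4% false calls. In the data 79.2% of genes were called, so these rates need not hold for them. Replicates differed by more than sampling noise (chi-square per degree of freedom 3.14 to 12.5). Same-numbered control and HHT libraries deviated together from their group means (r 0.438 to 0.517), numbered as in the sample titles, and these numbers fall on the same lines. The column names carry other replicate numbers, and not all of them occur in both treatments. Those that do give the same pair as the titles in F3 (control 2 with HHT 2). In G7 they give another (control 3 with HHT 4), so the pairing there rests on the titles alone. Within a line the correlations of same-numbered libraries by title were 0.0992 in F3 and 0.25 in G7, and that of control 3 with HHT 4 was -0.25. Alternatives used limma 3.58.1 and DESeq2 1.42.0, other scalings and filters, each line alone and each library left out. Cut-offs of 5 and 20 CPM were chosen after seeing the data.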

Additional observations from a re-analysis of the deposited data

Results flagged for a closer look

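Dixon's test flags about 1 in 20 groups by chance where all 4 values come from a single population. Each group here holds 2 libraries of each line, so that rate need not apply. Of 424 groups of 4 libraries, 14 held 1 library that lay apart from the other 3 by this test. These were NAB2 in control replicate 2 (16 CPM), PRTN3 in HHT replicate 4 (34.7 CPM), HILPDA in control replicate 3 (112 CPM), MIR210HG in control replicate 4 (12.5 CPM), TPR in control replicate 4 (253 CPM), DUSP6 in control replicate 3 (13.3 CPM) and ZFP36L1 in control replicate 4 (26.6 CPM). The others were CNOT1 in HHT replicate 3 (150 CPM), IARS in control replicate 3 (323 CPM), SLC6A9 in HHT replicate 2 (0.0858 CPM), HSPA1A in HHT replicate 3 (0.269 CPM), RIPK1 in HHT replicate 3 (52.4 CPM), RICTOR in HHT replicate 3 (59.8 CPM) and MYB in control replicate 4 (821 CPM).

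The log2 response differed between the lines for 38 of 208 named genes by the interaction test of edgeR (adjusted p under 0.05), and values are the response of G7 minus that of F3. It was higher in G7 for BTG2 (1.26), KIAA1551 (0.59), SLC7A5 (0.83), CCL3L1 (1.21), CD300A (0.61), AP002761.4 (1.30), VAV1 (0.44), MYC (0.72), BCL2 (0.45), FOS (1.28), DUSP3 (0.43) and DUSP7 (0.53). Also higher were CXCL8 (0.71), TNF (1.13), SNHG16 (0.41), EEF2K (0.61), SLC1A5 (0.49), SLC43A2 (0.93), DDIT3 (0.86), LSS (1.13), SCD (0.43), TFRC (0.77), CCND3 (0.51), CXCR4 (0.86) and MYB (0.69). It was lower in G7 for TRIB1 (-0.49), JUN (-0.65), PFKFB4 (-0.66), HES1 (-1.65), EREG (-0.89), ZFP36L2 (-0.51), FTH1 (-1.52), MAP1LC3B (-0.44), TUBB2A (-1.17), MPO (-0.66), CD47 (-0.72), PARP9 (-0.50) and BST2 (-0.45). Single libraries move the number of such genes, as given with the alternatives.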

How the results depend on the processing

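The number of genes called differed by less than 1.5 times from 10793 under every alternative, from 9437 with protein-coding genes only to 11960 with no filter on low counts. Leaving out 1 library at a time gave 10482 to 10787. Of 3938 recomputed fold changes of named genes 3903 kept their side of the threshold, and also their direction where called in the main fit. Another 12 (7 of BBC3, 4 of MT-CYB and 1 of LYZ without the line term) lost the call. A call was gained by 22, and 1 of a called gene reversed (BBC3, 0.03 with library totals alone). Direction was not compared for genes not called in the main fit. FTH1 in G7 alone is thus counted as kept, and GAS5 with library totals alone as gained, though both changed sign. A test against a 2-fold change called 3096 genes, where 4338 were called and had an estimate past 2-fold. The number of genes with a line difference, 572, was 170 to 1045 when 1 library was left out. It was 170, 307 and 1045 without control replicates 1, 2 and 4, and 333, 236, 243 and 353 without HHT replicates 1 to 4. With the replicate block, which follows the title numbers and not those of the column names, it was 2199, while the count for HHT against control was 10841 with that block. The cause was not tested.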
